A study of Mus musculus with 10 samples.

Results

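Microtubules are polymers of tubulin that give neurons their shape and carry their transport, and structural microtubule-associated proteins (MAPs) bind along the polymer and stabilize it. Ribosome footprints were followed on 6 mouse genes of this class, Map1a (ENSMUSG00000027254), Map1b (ENSMUSG00000052727), Map2 (ENSMUSG00000015222), Map4 (ENSMUSG00000032479), Map6 (ENSMUSG00000055407) and Mapt (ENSMUSG00000018411), which encodes tau. They were chosen by name, as the rows of the footprint table whose Ensembl identifier maps to these symbols. All 6 were found among the 22373 genes of the table, and all 6 were among the 13484 genes tested, which had at least 32 footprints over the 2 libraries of some stage.

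MAP1A and MAP1B form 1 family, in which each protein is made as a precursor and cut into a heavy and a light chain. MAP2, MAP4 and tau form another and share repeats near the C terminus that bind the microtubule. MAP2 is known from dendrites and tau from axons, while MAP4 is found in many tissues. MAP1B is the early member of its family in developing axons and MAP1A the later member. MAP6, also called STOP, makes neuronal microtubules resistant to cold. Map2 and Mapt are also spliced differently in fetal and adult brain, which counts per gene do not show.

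Ribosome-protected mRNA fragments were measured by Ribo-seq in neocortex dissected from wild-type CD-1 mice at P0, the day of birth, and in embryos of 4 stages, E12.5, E14, E15.5 and E17. Each of the 5 stages had 2 libraries, each from brains of both sexes pooled, so that replicates are pools and p-values describe the spread between pools. In the main tests of single genes that spread was estimated jointly over all 5 stages, not from the 2 stages compared alone. No group carried a mutation or drug, and the RNase T1 and RNase A named in the labels were used on lysates to cut RNA outside the ribosome. A footprint count reflects how much mRNA is present together with how many ribosomes are on it, and in a whole tissue fewer cells of a type and less RNA per cell cannot be told apart.

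Libraries held 7544404 to 36129988 counts, the lowest in P0 replicate 1. The P0 pair also stood apart: the log2 ratio of replicates over 4559 well-covered genes had an SD of 0.539, against 0.127 to 0.221 at the other stages. Histone genes took 36.3% ± 3.19 of counts (SD, n = 2) at E12.5 and 8.07% ± 2.48 at P0, so levels are given as CPM, counts relative to library sizes scaled by TMM factors. Summed markers of neurons lay between 1281 and 1311 CPM at E12.5 and between 6061 and 6478 at P0, and those of dorsal telencephalon lay between 411 and 609.8 CPM in all libraries. Markers of other tissue were also present and moved with stage. Choroid plexus markers summed to 276 to 328 CPM at E12.5 and to 1118 to 1125 at E14, but to at most 14.4 from E15.5 on. Meningeal fibroblast markers summed to 95.6 to 98.9 CPM at E12.5, 59.3 to 68.9 at E14 and at most 6.57 later, and red blood cell markers lay between 10999 and 11385 CPM at E12.5 and between 1437 and 1859 at P0.

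Promoter records were in the RefSeq tables (GRCm38.p6) for 4 of the 6 genes, Map4 with a pair of start sites, and none was found for Map6 or Mapt. For Map1a, Map1b and Map2 the 100 bases before the first start of the RefSeq gene are shown because the step from E14 to E15.5 was called for Map1b and Map2 and not for Map1a, with copies of the GC box GGGCGG on either strand in capitals. They lie at chr2:121289490-121289589 (plus strand) for Map1a, inside the interval of Trp53bp1, at chr13:99516603-99516702 (minus) for Map1b and at chr1:66175102-66175201 (plus) for Map2, and each is written 5′ to 3′ on the strand of its gene. Both Map4 records lie inside the Map4 interval on chromosome 9 and are given by their counts alone.
Map1a: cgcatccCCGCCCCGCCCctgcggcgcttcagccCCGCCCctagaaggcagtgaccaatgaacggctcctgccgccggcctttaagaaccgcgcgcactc
Map1b: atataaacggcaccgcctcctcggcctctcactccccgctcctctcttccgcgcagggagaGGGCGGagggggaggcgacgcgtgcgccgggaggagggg
Map2: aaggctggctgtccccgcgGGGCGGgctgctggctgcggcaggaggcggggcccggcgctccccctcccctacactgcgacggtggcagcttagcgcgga
Over the 250 bases before each recorded start, the GC box, overlapping copies included, occurred 4 times for Map1a, 1 time for Map1b, 5 times for Map2, 3 times for the first Map4 start and 0 times for the second. At least 1 copy is present in 32.7% of all 32851 RefSeq promoters of this length. CpG pairs numbered 21 for Map1a, 19 for Map1b, 34 for Map2, 36 for the first Map4 start and 4 for the second, beside a median of 6 and an upper quartile of 16 over all promoters. Map1b alone among these 5 windows held a TATAAA on the printed strand, which 7.59% of promoters have anywhere in the 250 bases. It is the lower-case run at the left end of the Map1b sequence, the end farthest from the start. This is given as a match of letters and not as a TATA box. Map1b also held the only E-box CAGATG of the 5 (either strand), which 14.4% of promoters have. These matches describe the sequence and were not tested against the footprints.

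All 6 genes rose from E12.5 to P0 (limma-voom, Benjamini-Hochberg adjusted p between 3.74e-07 and 4.97e-05). Mapt rose most, with a fold change of 15.4 (95% interval 12.9 to 18.3), and Map6 followed with 6.49 (5.35 to 7.87). Map4, Map1a, Map2 and Map1b rose by 3.34, 3.17, 2.74 and 2.65. The intervals of these 4 overlap, while that of Mapt lies above all the others and that of Map6 above the 4. Calls needed an adjusted p under 0.05 with a log2 change of at least 0.32 in size. By that rule 30.1% of all genes tested were called higher at P0 than at E12.5 and 32% lower. Over all 5 stages the F test called each of the 6 (adjusted p between 1.45e-06 and 0.000239), as it did 63.8% of all genes. Together the 6 genes held 0.0853% ± 0.00658 of all counts at E12.5 and 0.594% ± 0.0474 at P0 (SD, n = 2).

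**Figure D1:**
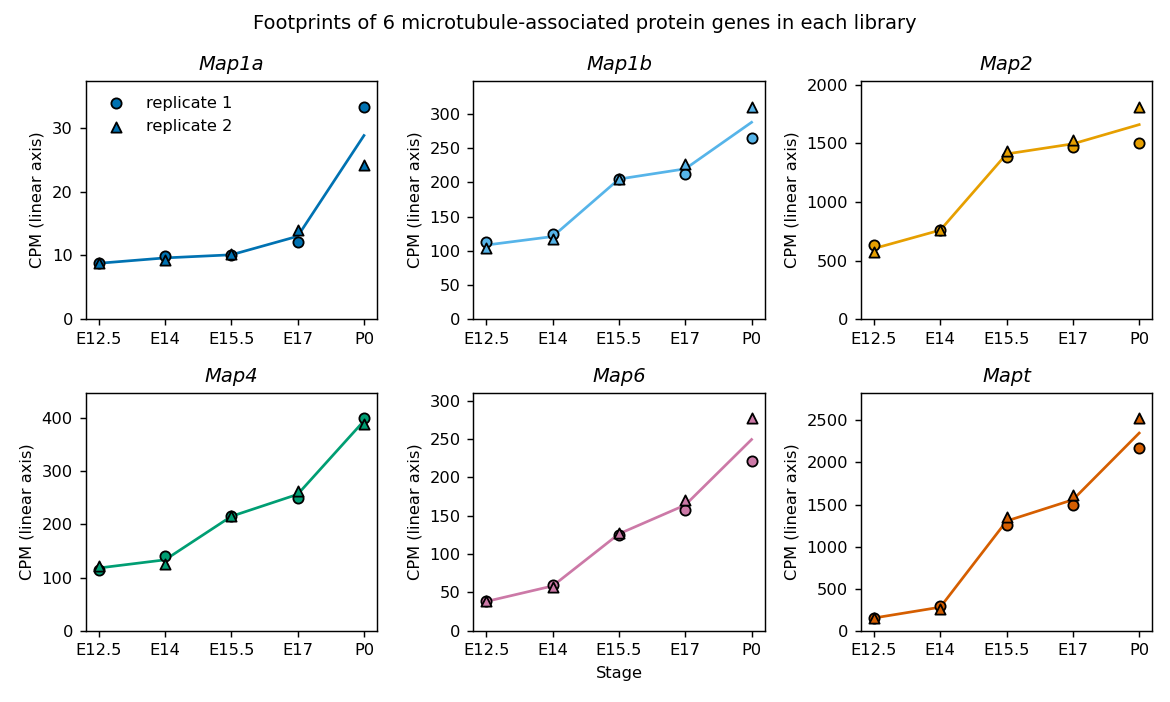
Footprints of the 6 genes in each library, as CPM on linear axes that start at 0 and differ between panels; circles are replicate 1, triangles replicate 2, and lines join stage means of 2 libraries. Map1b, Map2, Map6 and Mapt climb steeply between E14 and E15.5, Map1a climbs mainly between E17 and P0, and the P0 pair is the most spread for Map1a, Map1b, Map2, Map6 and Mapt.

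The rise came in steps. From E12.5 to E14, 1 of the 6 genes was called higher and 0 lower, beside 0.497% and 0.141% of all genes. From E14 to E15.5, 5 were called higher and 0 lower, beside 16.5% and 19.6%, and the median log2 change was 0.827 for the 6 and -0.009 for all genes. From E15.5 to E17, none of the 6 was called by limma-voom or by edgeR, beside 5.61% of all genes higher and 3.43% lower. In that step 2 of the 6 had an unadjusted p under 0.05, and DESeq2 called 1, Map6. From E17 to P0, 5 were called higher and 0 lower, beside 9.46% and 11.1% of all genes. No gene of the 6 was called lower at any step.

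**Figure D2:**
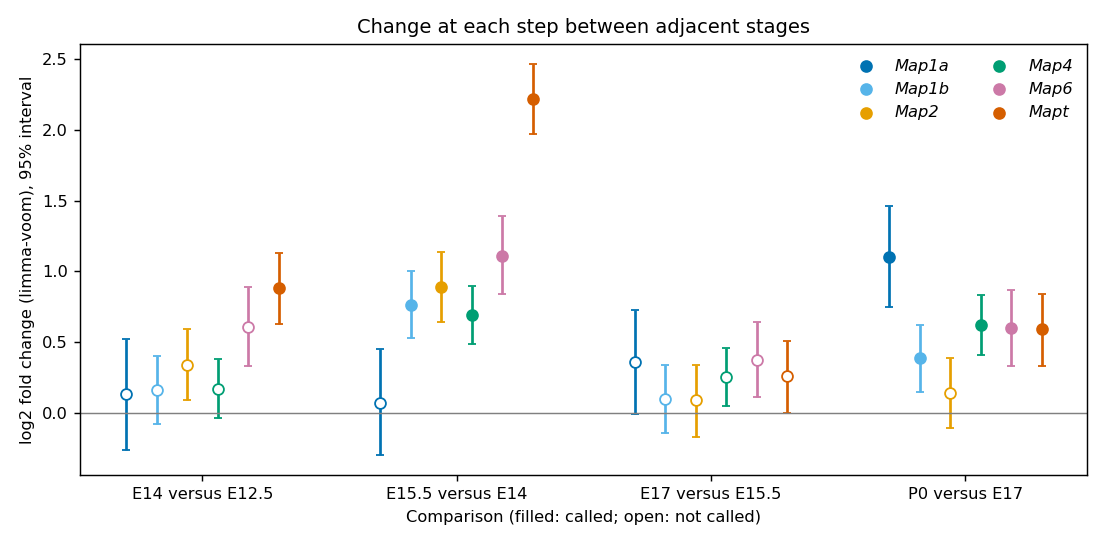
Fitted log2 fold change of each gene at each step between adjacent stages, with 95% intervals; filled points were called changed and open points were not. The step from E14 to E15.5 holds the tallest point, Mapt at 2.22, and Map1a is the lone open point there, while at E17 to P0 Map1a is the highest at 1.10 and Map2 the lone open point.

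Tau had the widest range. Mapt was at 153 and 151 CPM at E12.5, 296.5 and 265 at E14, then 1252 and 1358 at E15.5, 1498 and 1616 at E17, and 2173 and 2526 at P0 (replicates 1 and 2), from 2781 to 105902 footprints per library. No library of a stage overlapped with those of the stage before it. The same held in steps that were not called, such as that of Map1a from E14 to E15.5 (limma-voom adjusted p = 0.766). Such separation alone therefore does not mark a called change. How many of all genes separate in this way was not counted, here or for the genes below. The log2 change was 0.88 ± 0.11 (SE) from E12.5 to E14 (adjusted p = 0.0264), 2.22 ± 0.11 from E14 to E15.5 (adjusted p = 3.15e-05), 0.26 ± 0.11 from E15.5 to E17 (adjusted p = 0.196) and 0.59 ± 0.11 from E17 to P0 (adjusted p = 0.00973). The single step from E14 to E15.5 thus held 56.3% of its whole log2 rise, and by log2 change it ranked 145 of the 13484 genes in that step. Mapt was the 1 gene of the 6 called between E12.5 and E14, a call that was lost when any library of E12.5, E14, E15.5 or E17 was left out (adjusted p up to 0.221 over the alternatives).

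Map2, the dendritic relative of tau, had most of its rise behind it by E15.5. It was at 630.4 and 574 CPM at E12.5, 761 and 758 at E14, then 1380.1 and 1437 at E15.5, 1465 and 1524 at E17, and 1505 and 1813 at P0. The E17 and P0 libraries overlapped, and the log2 change between them was 0.14 ± 0.11 (SE, adjusted p = 0.389, 95% interval -0.11 to 0.39). Its step from E14 to E15.5 was 0.89 ± 0.11 (adjusted p = 0.000577), or 61.4% of its rise. From E12.5 to E14 the change was 0.34 ± 0.11 (adjusted p = 0.183), and from E15.5 to E17 it was 0.09 ± 0.11 (adjusted p = 0.695).

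Map4, the widely expressed member of that family, rose in both of the larger steps. It was at 115 and 121 CPM at E12.5, 140.4 and 126 at E14, then 215 and 215 at E15.5, 250 and 263 at E17, and 399 and 389 at P0. Every stage lay above the one before it in both libraries. The log2 change was 0.69 ± 0.090 (SE, adjusted p = 0.000745) from E14 to E15.5 and 0.62 ± 0.091 (adjusted p = 0.00378) from E17 to P0, and its changes of 0.17 and 0.25 in the other steps were not called (adjusted p = 0.408 and 0.121).

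The MAP1 pair rose at different times. Map1b was at 112 and 105 CPM at E12.5, 124.5 and 117 at E14, then 205 and 205 at E15.5, 213 and 227 at E17, and 265 and 311 at P0, with no overlap between adjacent stages. Its log2 change was 0.76 ± 0.10 (SE, adjusted p = 0.000916) from E14 to E15.5 and 0.39 ± 0.10 (adjusted p = 0.0333) from E17 to P0, and 0.16 and 0.10 in the steps not called (adjusted p = 0.523 and 0.606). Map1a was at 8.80 and 8.75 CPM at E12.5, 9.98 and 9.25 at E14, then 10 and 10.2 at E15.5, 12.1 and 14 at E17, and 33.4 and 24.3 at P0, from 160 to 1018 footprints per library. Its 8 embryonic libraries lay between 8.75 and 14 CPM and both P0 libraries above them. It changed by 0.07 ± 0.17 (SE) from E14 to E15.5 (adjusted p = 0.766, 95% interval -0.30 to 0.45) and by 1.10 ± 0.16 from E17 to P0 (adjusted p = 0.00335). The last step held 66.3% of the log2 rise of Map1a, beside 27.5% of that of Map1b. Map1a was therefore the 1 gene of the 6 not called between E14 and E15.5.

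The level of Map1a at P0 differed between the pools more than at any other stage, with 307 footprints behind the higher value and 1018 behind the lower. Without P0 replicate 1 its log2 change from E17 to P0 was 0.91, and without P0 replicate 2 it was 1.40. The call was kept in both cases. In RefSeq, Trp53bp1 and Ppip5k1 overlap the ends of the Map1a interval, and how reads in such overlaps were counted is not given in the sources used here. From E17 to P0, Trp53bp1 changed by -0.03 ± 0.090 (SE, adjusted p = 0.852) and Ppip5k1 by 0.23 ± 0.26 (adjusted p = 0.541) on the log2 scale.

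Map6 was higher in both libraries of each stage than in those of the stage before, also in steps that were not called. It was at 38.3 and 38.2 CPM at E12.5, 59.8 and 57.1 at E14, then 125 and 128 at E15.5, 157 and 171 at E17, and 222 and 277 at P0. The log2 change was 1.11 ± 0.12 (SE, adjusted p = 0.000317) from E14 to E15.5 and 0.60 ± 0.12 (adjusted p = 0.0105) from E17 to P0. In the steps from E12.5 to E14 and from E15.5 to E17 it was 0.61 ± 0.12 and 0.37 ± 0.12, above the fold threshold but not called (adjusted p = 0.0669 and 0.0849).

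The calls from E17 to P0 rest on the wide P0 pair. Between those stages the call of Map1b was lost in 13 of 20 alternative settings (adjusted p up to 0.213). Without E17 replicate 1 those of Map6 and Mapt were lost too (adjusted p up to 0.136 and 0.126 over the settings). With the 4 libraries of E17 and P0 fitted alone, 0 of the 5 calls were kept, and 0 of all 12995 genes in that fit were called. Map1a and Map4 had adjusted p = 0.0952 and 0.102 there.

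Ratios of counts within a library do not depend on how libraries are scaled, so 6 ratios between members were compared over the stages. Coding lengths were not used, so that a ratio is read only as a change from its E12.5 mean. Mapt to Map2, tau against its dendritic relative, was higher at each stage than at the one before. The libraries were 0.62 and 0.47 above the E12.5 mean (log2) at E14, then 1.84 and 1.90 at E15.5, 2.02 and 2.07 at E17, and 2.51 and 2.46 at P0. That is a 5.61-fold shift, with no overlap between adjacent stages. How often ratios of other genes separate in this way was not counted. The exact permutation test gave p = 0.00106, the smallest of its 945 divisions of the libraries into pairs (adjusted p = 0.00635 over the 6 ratios). Mapt to Map4 reached 2.23 ± 0.083 (log2, SD, n = 2) at E15.5 and stayed at 2.20 ± 0.18 at P0 (exact permutation p = 0.0159, adjusted p = 0.019). Map6 to Map4 reached 0.86 ± 0.025 at E15.5 and 0.95 ± 0.25 at P0 (exact permutation p = 0.0116, adjusted p = 0.0175).

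The means of the other 3 ratios changed direction after E15.5. Map1a to Map1b was at -0.73 and -0.70 at E15.5, then -0.52 and -0.40 at E17, then 0.64 and -0.05 at P0 (exact permutation p = 0.0222, adjusted p = 0.0222). The fall at E15.5 was larger than the spread of its libraries, but its level at P0 was not settled, since the P0 pair lay on both sides of the E12.5 mean. Without P0 replicate 1 the difference between P0 and E12.5 was -0.05 in place of 0.29. The call of this ratio was lost without E17 replicate 2 (adjusted p of the exact test 0.0508) or either library of E15.5 (0.072 and 0.0667). Map2 to Map4 was 0.36 ± 0.042 at E15.5 and -0.28 ± 0.22 at P0 (SD, n = 2; exact permutation p = 0.00635, adjusted p = 0.0127), and -0.13 at P0 without P0 replicate 1, where the adjusted p of the exact test was 0.0635. Its call was lost as well without E17 replicate 2 (exact, adjusted p = 0.0508) or either E15.5 library (0.0521 and 0.0667). Map2 to Map1b rose to 0.31 ± 0.040 at E15.5 and was 0.05 ± 0.026 at P0 (SD, n = 2; exact permutation p = 0.00317, adjusted p = 0.00952).

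**Figure D3:**
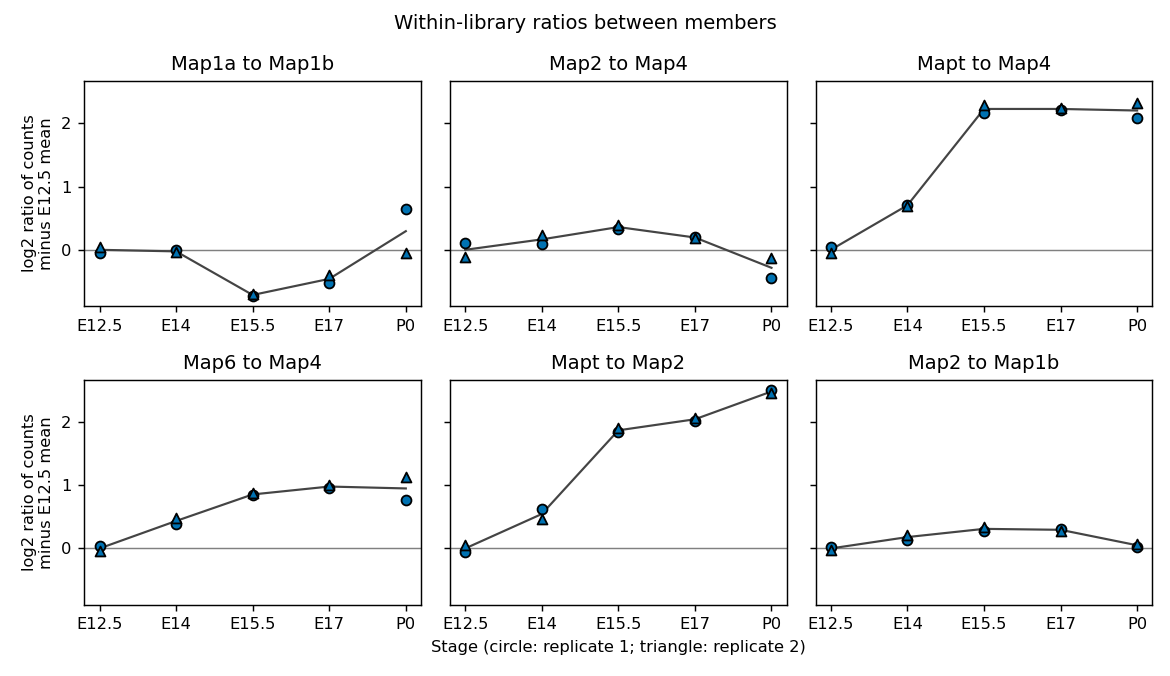
Log2 ratio of counts between 2 members within each library, minus its mean at E12.5, for 6 ratios on a shared axis; circles are replicate 1, triangles replicate 2, lines join stage means. Mapt to Map2 climbs at each stage to 2.49, Mapt to Map4 is flat after E15.5, and Map1a to Map1b dips to -0.72 at E15.5 with its P0 libraries at 0.64 and -0.05.

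Neuron markers rose over the same stages, and their part in the rise of the 6 genes was not tested. Of the 10 markers (Tubb3, Rbfox3, Neurod2, Neurod6, Stmn2, Snap25, Syn1, Syt1, Gap43 and Nefl), all 10 were called higher from E14 to E15.5, with log2 changes of 0.35 to 3.18 and a median of 1.21. From E12.5 to P0 all 10 rose, by 0.70 to 4.70 with a median of 2.61. Mapt changed more than 9 of the 10 in both comparisons, with Nefl the exception in each. Map6 changed more than 5 and 6 of them, while Map1a, Map1b, Map2 and Map4 each exceeded 2 of the 10 from E12.5 to P0. Map1a changed less than all 10 from E14 to E15.5, and more than all 10 from E17 to P0. In that last step it changed by 1.10 and the highest marker by 0.92. Without P0 replicate 1 the change of Map1a was 0.91, and the markers were not compared with it again there.

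Set within each library against the summed footprints of these 10 markers, a measure added after the values were seen, the genes parted. Relative to its E12.5 mean, Mapt stood at 1.46 to 1.52 on the log2 scale at E15.5 and 1.61 to 1.73 at P0. Map6 stood at 0.10 to 0.13 at E15.5 and 0.31 to 0.53 at P0. The other 4 were below 0 in every library after E12.5. At P0, Map1b stood at -0.94 to -0.80, Map2 at -0.90 to -0.73, Map4 at -0.60 to -0.47 and Map1a at -0.85 to -0.30, and Map1a was lowest at E15.5, at -1.42 to -1.39. Tubb3 alone made up 46.9% to 59.7% of the sum. Without it the P0 means shifted from 1.67 to 1.47 for Mapt, from 0.42 to 0.22 for Map6 and from -0.53 to -0.74 for Map4.

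**Figure D4:**
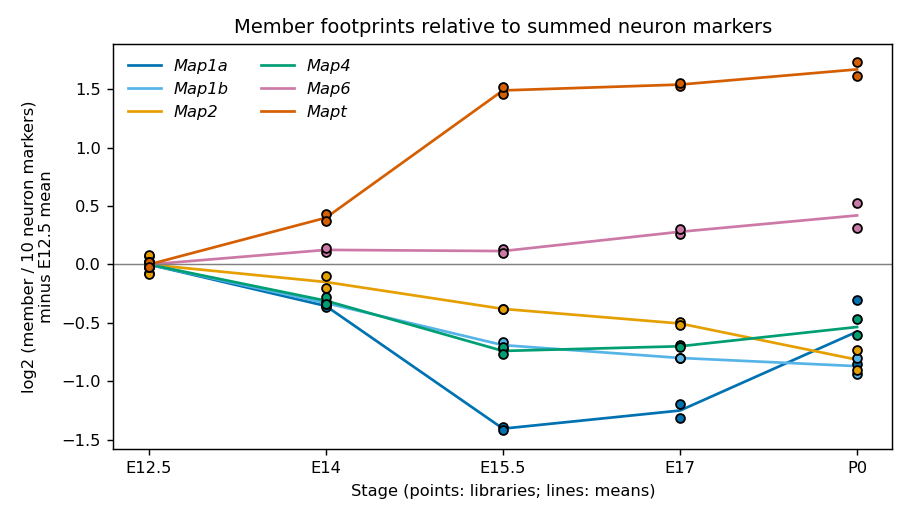
Log2 of each gene's footprints over the summed footprints of 10 neuron markers in the same library, minus its E12.5 mean; points are libraries and lines join stage means. Mapt ends at 1.61 to 1.73 and Map6 at 0.31 to 0.53, while the other 4 lie below 0 from E14 on and Map1a is lowest, at -1.42 to -1.39, at E15.5.

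Markers of other cells moved too. Of 10 progenitor markers, 8 were called lower and 1 higher from E14 to E15.5, and 8 lower and 2 higher from E12.5 to P0, although their sum was 2207 to 2356 CPM at E15.5 and 1462 to 1995 at P0. Most of that sum was Fabp7, a fatty acid binding protein of radial glia called higher in both comparisons, at 1056 CPM at E14, 1628 at E15.5 and 1486 at P0, while Vim was at 688, 355 and 96.2. Glial lineage markers summed to 32.7 to 34.1 CPM at E12.5 and 156 to 186 at P0, with 8 of 9 tested called higher. S100b was the only marker at 0 in both libraries of a stage, at E12.5. Ganglionic eminence and interneuron markers summed to 15.1 to 15.9 CPM at E12.5, 33.1 to 37.9 at E14, 120.1 to 125 at E15.5 and 165 to 173 at P0, and 6 of 8 were called higher from E14 to E15.5. In the same step all 4 choroid plexus markers tested and all 5 meningeal markers were called lower. Whether these shifts in tissue content contribute to the steps of the 6 genes was not tested, and they cannot be told apart from stage, since both pools of a stage shared them.

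The rest of the microtubule machinery was described with lists of genes. The shares of all genes to set beside each list were 16.5% called higher and 19.6% lower from E14 to E15.5. From E12.5 to P0 they were 30.1% and 32%. Of 24 other structural MAPs, 23 were tested. From E14 to E15.5, 12 were called higher and 1 lower, with a median log2 change of 0.61 where all genes had -0.009, and from E12.5 to P0, 19 were called higher and 0 lower (median 1.16). Mtus2 had the largest called rise of the list in both, 1.78 ± 0.24 (SE, adjusted p = 0.000815) and 3.46 ± 0.25 (adjusted p = 9.24e-06). Dcx, which encodes doublecortin of migrating neurons, rose by 1.54 over the whole span, and its relative Dclk1 by 2.51. Tppp3 of the tubulin polymerization-promoting family was the 1 gene of the list called lower in that step, at 11.2 CPM at E14 and 5.33 at E15.5, a fall of 1.08 ± 0.13 on the log2 scale (adjusted p = 0.000502).

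Proteins of the growing plus end moved in the same direction. Of 15, 11 were called higher and 0 lower from E14 to E15.5 (median 0.59), and 11 higher and 1 lower from E12.5 to P0. Nav2, a neuron navigator, had the largest called rise from E12.5 to P0, 3.55 ± 0.14 (SE, adjusted p = 6.04e-07), from 3.26 to 38.7 CPM. The end-binding genes Mapre2 and Mapre3 rose by 2.20 and 1.83, while Mapre1 had a log2 change of -0.15 (adjusted p = 0.625). Clasp1 was the 1 gene called lower, at -0.35 ± 0.11 (adjusted p = 0.023).

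Kinases and phosphatases that act on tau and its relatives were called higher at E15.5 than at E14 in 19 of 27 cases and lower in 0 (median 0.58), and again in 19 of 27 from E12.5 to P0 (median 0.87). Cdk5r1 and Cdk5r2, which encode the activators p35 and p39 of the kinase Cdk5, rose by 2.30 ± 0.14 (SE, adjusted p = 3.82e-06) and 4.4 ± 0.47 (adjusted p = 7.3e-05) from E12.5 to P0, beside 1.36 ± 0.14 for Cdk5 itself. Gsk3b, a kinase of tau, rose by 0.48 ± 0.092 and Gsk3a by 1.11 ± 0.22. Ppp2r2c, a regulatory subunit of the phosphatase PP2A, rose by 4.04 ± 0.32, whereas the catalytic subunit gene Ppp2ca had 0.06 ± 0.093 (adjusted p = 0.58).

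Severing and tubulin-modifying enzymes were mixed. From E14 to E15.5, 9 of 22 were called higher and 2 lower (median 0.36), and from E12.5 to P0, 11 were called higher and 4 lower (median 0.72). Agtpbp1, which removes glutamates from tubulin tails, rose by 2.83 ± 0.29 (SE) over the whole span, and Atat1, the tubulin acetyltransferase, by 1.70 ± 0.15. Those that fell were Fignl1, by 2.83 ± 0.19, and Katnal2, Katna1 and Ttll4, by 1.84, 1.73 and 1.64. Svbp, the partner of the vasohibins in removing the last tyrosine of tubulin, had the largest called fall of the list from E17 to P0, at -1.22 ± 0.18 (adjusted p = 0.0041), from 189.9 to 81.2 CPM.

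MAPs of the mitotic spindle went the other way. Of 12, 11 were called lower and 0 higher from E14 to E15.5 (median -1.03), and all 12 were lower at P0 than at E12.5 (median -3.69), as 11 were at E17 against E15.5 (median -0.94) and at P0 against E17 (median -1.25). Dlgap5 fell most over the span, from 13.2 to 0.660 CPM, and Prc1, which bundles microtubules of the central spindle, fell by 1.61 ± 0.18 (SE, adjusted p = 0.00189) from E17 to P0. In the steps from E12.5 to E14 and from E15.5 to E17, 0.497% and 5.61% of all genes were called higher, and 0.141% and 3.43% lower. In those steps 0 or 1 gene of each of the other 4 lists was called higher and 0 lower. These were Tppp3 in both steps, Nav2 and Brsk1 in the first and Ppp2r2c in the second. From E17 to P0, 9.46% of all genes were called higher and 11.1% lower. In the lists, 4 of the 23 other MAPs, 5 of the 15 plus-end genes and 4 of the 27 kinases and phosphatases were called higher and 0 lower. Their median log2 changes were 0.30, 0.26 and -0.01. Mtus2 (1.00 ± 0.18, SE), Nav1 (0.82 ± 0.11) and Cdk5r2 (1.53 ± 0.27) had the largest called rises on the log2 scale. Of the 22 severing and modifying enzymes, 2 were called higher in that step, led by Ttll7 at 0.60 ± 0.14, and 4 lower.

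**Figure D5:**
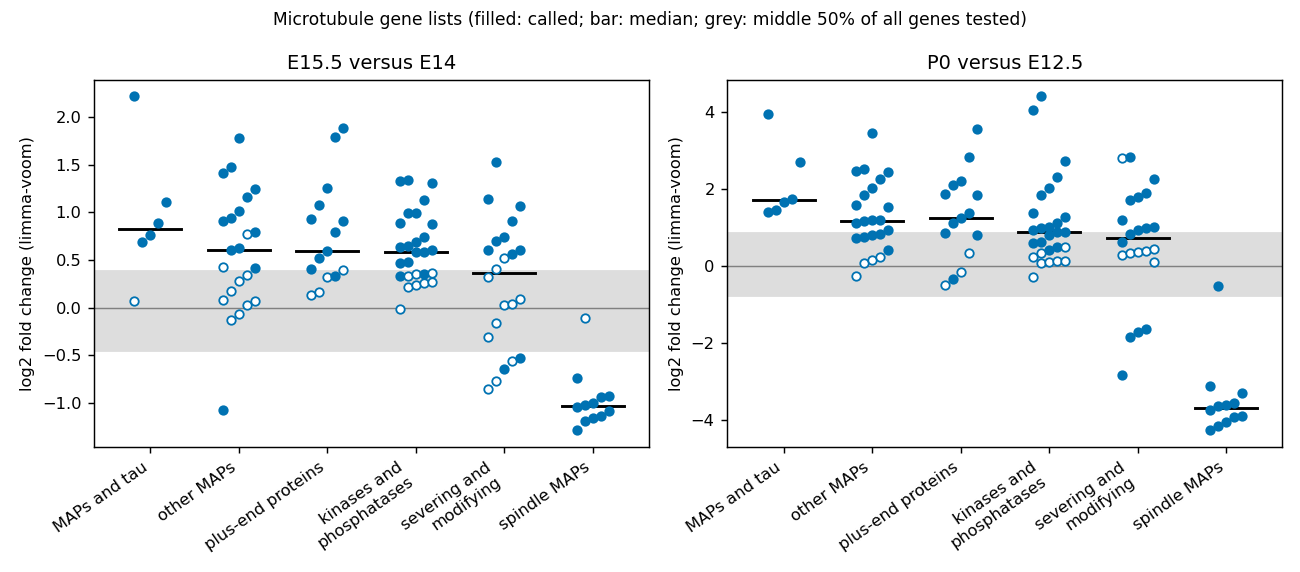
Log2 fold change of each gene of 6 groups of microtubule genes from E14 to E15.5 (left) and from E12.5 to P0 (right); filled points were called changed, open points were not, bars are group medians and the grey band holds the middle 50% of all genes tested. Medians lie between 0.36 and 0.827 on the left and 0.72 and 1.70 on the right for 5 groups, and at -1.03 and -3.69 for the spindle group.

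Over the 10 libraries the log2 CPM of Map2 and Mapt had a Pearson's r of 0.995, the highest pair, and Map1a and Map2 one of 0.665, the lowest. Each r is a description over libraries that share a stage in pairs. Among 4554 other genes that averaged 500 counts or more, the 3 with the highest r to each member were Sybu (0.9992), Dnm3 (0.9987) and Plk2 (0.9978) for Mapt, Nexmif (0.9986), Myt1l (0.9974) and Phactr1 (0.997) for Map2, and Vamp2 (0.9987), Sncb (0.9977) and Ablim1 (0.9976) for Map6. For Map4 they were Prrt2 (0.997), Snrpn (0.9962), which shares its transcript with Snurf and is uncertain, and Map1lc3a (0.9955), and for Map1b they were Mef2c (0.9971), Sptan1 (0.9962) and Rnf14 (0.9952). Map1a had the lowest top values, with Dusp3 (0.9889), Sh3bgrl3 (0.9834) and Hspbp1 (0.9762). No gene appeared in more than 1 of these lists.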

How the data were processed

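Footprints were counted by Ribo-seq in 10 libraries of pooled mouse neocortex, 2 at each of 5 stages. The authors deposited whole-number counts per gene, not scaled to depth. Before that, according to the methods, reads were trimmed and deduplicated by sequence, those of tRNA, rRNA and snoRNA were dropped and the others aligned with STAR (2.7.0 in the submitters' processing notes, another version in the methods) to coding transcripts and genome of GENCODE release M12. The methods then name DeepShape-prime for isoform estimates and tximport for length-corrected gene counts. Whether the deposited counts come from that step is not stated, so a count may be an estimate corrected for length rather than a number of reads. No assembly name is given in the sources used here, and isoforms and genes with near-identical copies or overlaps are not resolved. Symbols came from a reference list of gene names.

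In R 4.3.3, the 13484 genes that reached 32 footprints in some stage were scaled by TMM (edgeR 4.0.16) and tested with limma-voom (limma 3.58.1), 1 coefficient per stage over all 10 libraries, two-sided and Benjamini-Hochberg adjusted over all genes kept. Calls need an adjusted p under 0.05 with a log2 change of at least 0.32 in size, the study's fold threshold. Ratios between members were tested by an exact permutation of F over libraries (Python 3.11.15). edgeR's quasi-likelihood test, DESeq2 1.42.0, other scalings and filters, sample weights, a replicate block, fits of 2 stages and leaving out each library were alternatives. Code was tested on simulated data.

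The members and lists were chosen with earlier results of these data known. Named list genes are those with the largest called rise or fall per list and comparison, with a mean of at least 100 counts. Dcx, Dclk1, Mapre1, Mapre2, Mapre3, Cdk5, Gsk3a, Gsk3b, Ppp2ca, Atat1, Katnal2, Katna1, Ttll4, Trp53bp1 and Ppip5k1, and Cdk5r1, Ppp2r2c and Svbp outside the comparisons that chose them, were named after their values were seen. For each member, the 3 most alike genes were taken by Pearson's r of log2 CPM. All columns of the table were used.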

Additional observations from a re-analysis of the deposited data

How the results depend on the processing

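The 30 log2 changes (6 genes in 5 comparisons) were refitted under 20 alternatives each. Of these 600 values, 552 kept their direction and their side of the threshold, 31 lost a call, 17 gained one and 0 changed sign. The calls for the step from E14 to E15.5, those for the whole span to P0 and the F test where it was run, came out the same in all alternatives. From E12.5 to E14, 1 gene was called in the reported fit, 2 with DESeq2, 2 with total counts, 2 with sample quality weights, 0 with the replicate block, 0 with only these stages fitted, and 0 to 3 with a library left out (3 without either P0 library, 0 without any other). From E15.5 to E17 the reported count of 0 was 1 with DESeq2, 1 with total counts, 2 with quality weights, 2 with only these stages fitted and 0 to 2 with a library left out. From E17 to P0 the reported 5 was 2 with quality weights and 2 to 5 with a library left out, the lowest without E17 replicate 1. It was 0 with only these stages fitted, where 0 of all 12995 genes were called. The cause of these differences was not tested. Smaller fits had fewer libraries, and some of them gave more calls and others fewer.

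Total-count scaling raised the median of all genes by 0.29 from E14 to E15.5 and by 0.51 over the whole span (log2). Relative to that median Mapt changed by 2.23 and 3.96, against 2.23 and 3.95 with TMM. The share of all calls that were higher went from 45.6% to 72.7% and from 48.5% to 72% in these comparisons, from 77.9% to 90.9% from E12.5 to E14 and from 46.1% to 63.3% from E17 to P0. Counts of all genes called ranged from 0 to 1062 for E12.5 to E14 (86 reported), 2739 to 6502 for E14 to E15.5 (4868), 0 to 3717 for E15.5 to E17 (1219), 0 to 4419 for E17 to P0 (2767) and 5999 to 9185 for E12.5 to P0 (8371). Counts over the 5 lists stayed equal or within 1.5 times in 839 of 1000 cases. Counts of 0 that stayed at 0 are among these, so the share says less about lists with calls.

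With a library left out, the P0 difference of Map1a to Map1b lay between -0.05 and 0.64 with an adjusted p of up to 0.072, and that of Map2 to Map4 between -0.44 and -0.13 with up to 0.0667. Each lost its call without E17 replicate 2 or either library of E15.5, and Map2 to Map4 also without P0 replicate 1. The other 4 ratios kept theirs. Deviations of same-numbered replicates were correlated between stages, and 5 of 10 correlations exceeded 0.1 (-0.634 to 0.426). Those with E12.5 were all negative (-0.634 to -0.108). The sources used here do not state whether replicate numbers mark a shared batch, and the samples were not treated as paired. The replicate block called 0, 5, 0, 4 and 6 of the genes in the 4 steps and the whole span. Depth limits Map1a most, at 160 to 1018 footprints per library.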
